A study of Mus musculus with 4 samples.

Results

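The 10 tubulin genes described here were the alpha tubulin genes Tuba1a, Tuba1b, Tuba1c and Tuba4a, the beta tubulin genes Tubb2a, Tubb2b, Tubb4b, Tubb5 and Tubb6, and the gamma tubulin gene Tubg1. They were chosen by symbol, with earlier results of these data known. All 10 were found among the 20171 genes of the gene table, and 38 of the 68012 isoforms of the isoform table were assigned to them. The cells were mouse oocytes from unmated C57BL/6J females aged 6 to 8 weeks, and zygotes and blastomeres from crosses of such females with DBA/2NCrl males. Oocytes and embryos thus differ in genotype as well as in stage. The females had been injected with pregnant mare's serum gonadotropin before collection. There were also 5 cells of the mouse embryonic stem cell line E14 Tg2A (mESC). This male line stands for pluripotent cells in culture and not for an embryo. Each cell was sequenced as full-length cDNA on a PacBio instrument with a cell barcode and a unique molecular identifier (UMI) per cDNA molecule. A level is given here as copies per 100000 UMIs of a cell, so that each molecule counts once whatever its length. Levels of different genes compare as numbers of molecules. A fall in a gene and a rise in all other RNA cannot be told apart.

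Unfertilised oocytes were collected 20 h after injection of hCG, the hormone that triggers ovulation, zygotes at 22 to 24 h, early 2-cell embryos (E2C) at 30 to 32 h, late 2-cell embryos (L2C) at 46 to 48 h, 4-cell embryos at 54 to 56 h, 8-cell embryos at 68 to 70 h, 16-cell and 32-cell embryos at 78 to 80 h and early blastocysts at 88 to 90 h. The names of 121 cells gave 10 oocytes, 9 zygotes and embryos at the E2C (5), L2C (6), 4-cell (5), 8-cell (4) and 16-cell (4) stages, and the mean over the cells of an embryo was 1 replicate. The 22 32-cell, 13 blastocyst and 5 mESC cells named no embryo and entered no test. The 161 cells held 4985 to 389775 UMIs each, with medians of 195671 in oocytes and 32466 in 4-cell blastomeres. So 1 UMI stood for 0.511 copies per 100000 in a median oocyte and for 3.08 in a median 4-cell blastomere. L2C embryo 1 was a single cell with 17971 UMIs, against 103135 to 125101 in the other L2C embryos, so its values rest on few UMIs. Whether an embryo number was used again for another embryo of the same stage, and which embryos shared a mother, was not given. The p-values set stage differences against the spread between these embryos as if all were independent, which could not be checked. The summed level of 6 oocyte markers (Zp1, Zp2, Zp3, Gdf9, Bmp15 and Oosp1) lay between 1691 and 2259 in oocytes and between 46.8 and 153 in L2C embryos. Of 9 cumulus and granulosa cell markers 6 were in the table and only Amhr2 was above 0 from E2C to the 8-cell stage.

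Microtubules are built from dimers of alpha and beta tubulin, and gamma tubulin, in a ring complex at microtubule organising centres, starts their assembly. Mammals carry several alpha and beta genes whose proteins are nearly alike along most of their length and differ mainly in the acidic tail at the end, where they are modified and where motors bind. The mouse oocyte and early embryo build their spindles without centrioles, first from stored maternal mRNA and, after the genome of the embryo is activated around the 2-cell stage, from newly made transcripts. Cells also adjust tubulin mRNA to their free tubulin: when free tubulin is in excess, alpha and beta mRNAs are degraded while they are translated, through recognition of the first amino acids of the new chain.

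The coding starts below, from the GRCm38 gene models, are shown because that control reads the first 4 codons, printed in capitals, of alpha and beta tubulin chains. Tubb3, a beta gene, is not among the 10 genes but is shown because it was the main beta tubulin of the oocyte. Among the genes shown, in the GRCm38 build that the files use, Tuba4a lies at chr1:75214228-75219865, Tubb4b at chr2:25222160-25224702, Tubb2a at chr13:34074274-34078007, Tuba1b at chr15:98931425-98934565 and Tubb5 at chr17:35833921-35838306. All 5 are on the minus strand with 4 exons each. Tubg1 lies at chr11:101119938-101126419 on the plus strand with 11 exons.
Tubb3 coding start: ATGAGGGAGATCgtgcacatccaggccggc
Tubb2a coding start: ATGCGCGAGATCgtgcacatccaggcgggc
Tubb4b coding start: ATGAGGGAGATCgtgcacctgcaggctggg
Tubb5 coding start: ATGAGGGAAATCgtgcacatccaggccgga
Tuba1b coding start: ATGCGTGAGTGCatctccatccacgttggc
Tuba4a coding start: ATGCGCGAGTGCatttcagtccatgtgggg
Tubg1 coding start: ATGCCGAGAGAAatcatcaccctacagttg

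The coding ends of the 4 beta tubulin genes that took turns as main or second beta tubulin show how their tails differ. Lower case marks 6 bases near the end that all 4 share in frame, and capitals mark everything after them. The capitals code for 24 residues in Tubb3, 19 in Tubb2a and in Tubb4b and 18 in Tubb5 before the stop codon. The first capital codons still code for the same residues in all 4, and shorter shared stretches occur further on.
Tubb3 coding end: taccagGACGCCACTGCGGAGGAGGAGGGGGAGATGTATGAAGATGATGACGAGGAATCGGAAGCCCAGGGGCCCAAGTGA
Tubb2a coding end: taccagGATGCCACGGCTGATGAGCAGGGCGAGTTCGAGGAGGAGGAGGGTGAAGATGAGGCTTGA
Tubb4b coding end: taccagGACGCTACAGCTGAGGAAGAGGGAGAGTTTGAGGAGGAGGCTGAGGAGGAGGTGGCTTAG
Tubb5 coding end: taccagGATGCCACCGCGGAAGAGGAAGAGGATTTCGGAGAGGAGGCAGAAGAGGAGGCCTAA
Over whole coding sequences Tubb4b was 82.2% identical in bases to Tubb5, 83.6% to Tubb2a and 82.3% to Tubb3. Tuba1a, Tuba1b and Tuba1c were 97.1 to 98.3% identical to each other, and Tubb2a was 96.5% identical to Tubb2b. A truncated read could be assigned to the wrong member of these pairs and their levels are less certain than those of the other genes.

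Sequence upstream of the start was also read, because Tubb4b and Tubb5 rose together and Tubb2a fell between E2C and L2C. RefSeq promoters of 250 bases were found for 7 of the 10 genes (all but Tubb2b, Tubb6 and Tubg1), and the stretches below stop before the most upstream 5′ end among the isoforms of the gene. Capitals mark CCAAT (on either strand, ATTGG on the other), TATAAA (or TTTATA) and GGGCGG (or CCGCCC).
Tubb4b (GRCm38.p6 chr2:25224783-25224952, minus strand): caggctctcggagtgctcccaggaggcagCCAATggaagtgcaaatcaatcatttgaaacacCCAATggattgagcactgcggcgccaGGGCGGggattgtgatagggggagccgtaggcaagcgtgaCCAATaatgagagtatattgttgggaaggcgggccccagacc
Tubb5 (GRCm38.p6 chr17:35838329-35838551, minus strand): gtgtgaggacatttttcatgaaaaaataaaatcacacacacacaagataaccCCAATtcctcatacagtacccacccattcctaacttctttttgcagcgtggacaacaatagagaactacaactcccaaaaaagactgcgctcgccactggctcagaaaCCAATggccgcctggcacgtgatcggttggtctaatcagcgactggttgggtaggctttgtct
Tubb2a (GRCm38.p6 chr13:34078009-34078258, minus strand): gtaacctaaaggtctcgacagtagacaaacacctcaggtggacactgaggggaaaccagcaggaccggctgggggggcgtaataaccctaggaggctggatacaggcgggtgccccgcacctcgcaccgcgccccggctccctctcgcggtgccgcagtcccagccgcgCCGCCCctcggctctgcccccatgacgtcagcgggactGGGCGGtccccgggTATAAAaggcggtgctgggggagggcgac
In the full 250 bases Tubb4b held CCAAT 5 times, at 221, 188, 122, 59 and 19 bases before the RefSeq start. The last 80 bases, with 2 of the 5 matches, lay inside the main Tubb4b isoform seen in these cells. Tubb5 held it 2 times, Tuba1a, Tuba1c and Tubb3 1 time each, and Tuba1b, Tuba4a and Tubb2a held none. Of 32851 RefSeq promoters of 250 bases 33.8% held CCAAT at least 1 time, 2.79% at least 3 times and 0.213% at least 5 times. Upstream of its main isoform Tubb4b held 3 matches in 170 bases, a shorter stretch than in the promoters counted. TATAAA was present in Tubb2a alone among the 7 and in 12.4% of all promoters, and GGGCGG was present in 32.7% of all promoters. These matches describe letters in a window and are not evidence of binding.

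Of the 7 calls in steps between adjacent stages, 4 fell between E2C and L2C. Of the 10 genes, 9 passed the filter of at least 1 copy per 100000 in at least 4 of the 43 embryos. The exception was Tubb2b. Differences between stages were tested with limma on log2(level + 1), which understates the fold changes of low genes. A gene counted as called where the log2 fold change was beyond 1 or −1 and the unadjusted p was below 0.01. Between E2C and L2C 3 of the 9 were called higher (Tubb4b, Tubb5 and Tubg1), where 25.6% of all 11682 genes were called higher. Among them 1 was called lower (Tubb2a), where 22.8% of all genes were called lower. The median log2 fold change of the 9 genes was 0.48, and that of all genes was 0.03. With 9 genes these counts do not set the tubulin genes apart from all genes, and the values below describe which of them moved and how far. Other measures moved at the same step and their part in the results was not tested. The median depth was 91609 UMIs per cell in E2C and 58097 in L2C. The summed oocyte markers were 526.2 to 710 in E2C and 46.8 to 153 in L2C. The cumulus and granulosa marker Amhr2 stood at 0 to 0.551 in E2C and at 5.56 to 24.9 in L2C, with the other 5 markers of that list at 0 in both. The sequencing run of cells after the zygote was not given in the sources used here, so run and stage cannot be told apart.

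**Figure D1:**
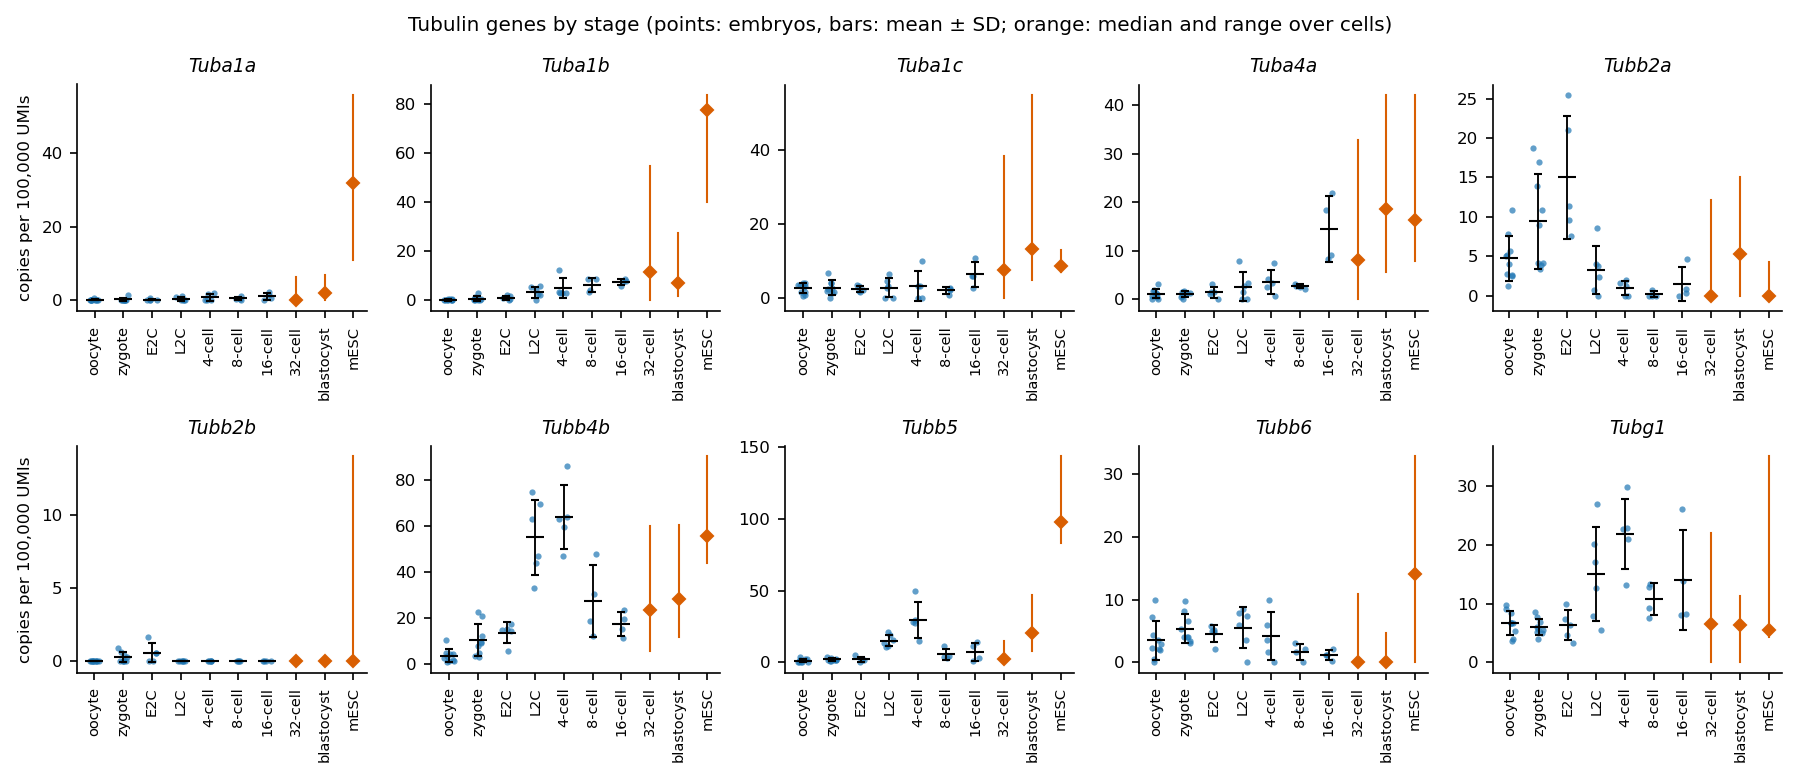
Level of each of the 10 tubulin genes (y axis, copies per 100000 UMIs, scaled for each gene) by stage (x axis). Blue points are oocytes, zygotes or embryos with their mean and SD as bars, and orange diamonds and lines are the median and range over single cells where no embryo was named; Tubb4b stood at 33.4 to 74.8 in the L2C embryos and at 5.96 to 17.7 in the E2C embryos, and Tuba1a stood above 10 in mESC alone.

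Tubb4b codes for a beta tubulin made in most tissues. Its level was 1.20 to 10.8 in the 10 oocytes with a median of 3.17, and 3.34 to 22.9 in the 9 zygotes with a median of 9.27. In the 5 E2C embryos it was 15.3, 14.6, 17.7, 15.1 and 5.96, and in the 6 L2C embryos it was 33.4 to 74.8 with a median of 55.1. The E2C and L2C groups did not overlap, but the lowest L2C value, 33.4 in embryo 1, rested on 6 UMIs of a single cell. The mean rose 4.03-fold from 13.7 ± 4.51 (SD over 5) to 55.3 ± 16.3 (SD over 6), a log2 fold change of 2.01 (SE 0.45, adjusted p = 1.31e-04). In the 5 4-cell embryos Tubb4b reached 47.3, 59.7, 63.9, 85.9 and 63.3, the highest mean of any stage up to 16 cells (64.0 ± 14.0, SD). This did not differ from L2C beyond the spread (log2 fold change 0.19, SE 0.51, adjusted p = 0.94). The 4 8-cell embryos stood at 18.8, 48.0, 12.3 and 30.4 and the 4 16-cell embryos at 19.9, 11.7, 23.5 and 15.2. The difference from 4-cell to 8-cell, −1.26 on the log2 scale (SE 0.49, adjusted p = 0.0683), was not called, with an unadjusted p of 0.0118 in limma, and 1 8-cell embryo stood inside the 4-cell range. Single 32-cell cells ranged from 5.64 to 60.3 (median 23.6), blastocyst cells from 11.96 to 60.4 (median 28.2) and mESC from 44.0 to 90.4 (median 55.9).

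Tubb4b was also the single one of the 10 genes called between oocyte and zygote, where 2.92% of all genes were called higher. The mean was 3.73 ± 2.87 (SD over 10) in oocytes and 10.5 ± 7.08 (SD over 9) in zygotes, with a log2 fold change of 1.36 (SE 0.24, adjusted p = 3.51e-05), and the groups overlapped. The sequencing run of these 19 cells was known, and the difference was not the same in each run. It was 1.79 on the log2 scale in run 1 (5 oocytes with a mean of 2.19 and 4 zygotes with a mean of 9.78), 0.95 in run 2 (1 oocyte at 10.8 and 2 zygotes with a mean of 21.9) and 0.11 in run 3 (4 oocytes with a mean of 3.87 and 3 zygotes with a mean of 4.02). The rise was thus not seen in run 3. With run as a block the log2 fold change was 1.03. Without the cells of run 2, a choice made after these values were seen, it was 1.06. Both were called.

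Tubb5, a beta tubulin of dividing cells, was scarce before L2C. Its level was 0 to 3.55 in oocytes (median 0.976), 1.27 to 3.72 in zygotes (median 1.83), and 4.90, 0, 2.18, 1.93 and 1.61 in the E2C embryos. In the 6 L2C embryos it was 11.1 to 20.9 with a median of 14.5, above every earlier embryo. The lowest of them, 11.1 in L2C embryo 1, rested on 2 UMIs of a single cell. The mean rose 7.21-fold from 2.12 ± 1.77 (SD over 5) to 15.3 ± 4.00 (SD over 6), with a log2 fold change of 2.60 (SE 0.47, adjusted p = 3.52e-06). The 4-cell embryos stood at 27.6, 49.7, 14.6, 28.1 and 29.6, and the 8-cell embryos at 3.70, 11.6, 4.40 and 3.19. These groups did not overlap. Tubb5 was the single one of the 10 genes called lower from 4-cell to 8-cell, where 10.5% of all genes were called lower. The mean fell from 29.9 ± 12.6 (SD over 5) to 5.73 ± 3.97 (SD over 4), a log2 fold change of −2.21 (SE 0.50, adjusted p = 0.00108). The 16-cell embryos split, with 3.15, 14.2, 11.4 and 1.26, and single 32-cell cells ranged from 0 to 15.2 (median 2.35). Tubb5 was the most abundant of the 10 genes in mESC, where the 5 cells held 83.6 to 144 copies (median 98.3), against 7.90 to 47.1 in blastocyst cells (median 20.6).

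Tubb2a, a beta tubulin best known from neurons, was present in every oocyte. It ranged from 1.20 to 10.8 in oocytes (median 4.52) and from 3.39 to 18.7 in zygotes (median 8.93), and stood at 11.3, 7.58, 9.57, 25.5 and 21.1 in the E2C embryos. L2C embryos held 0 to 8.62 with a median of 3.05. L2C embryo 4 overlapped the E2C range. The mean fell from 15.0 ± 7.83 (SD over 5) to 3.24 ± 3.07 (SD over 6), with a log2 fold change of −1.998 (SE 0.51, adjusted p = 6.19e-04). From 4-cell to 8-cell it was near 0, with 1.63, 0, 0, 1.15 and 1.99 in the 4-cell embryos and a value above 0 in 1 of 4 8-cell embryos. Single blastocyst cells held 0 to 15.1 (median 5.34), with 12 of 13 above 0. Before the fall its level in zygotes was 0.84 higher than in oocytes on the log2 scale (SE 0.27, adjusted p = 0.0265), below the fold limit of a call. That difference was 0.98 in run 1, 0.54 in run 2 and 0.22 in run 3.

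The most abundant beta tubulin before L2C was Tubb3, widely used as a neuronal marker. Its level was 45.9 to 96.5 in oocytes, 29.8 to 81.8 in zygotes and 35.5, 50.4, 36.8, 68.3 and 37.4 in the E2C embryos, against 0 to 5.17 in the L2C embryos. It fell 17.1-fold between E2C and L2C (log2 fold change −3.73, SE 0.40, adjusted p = 6.46e-12), with no overlap. The summed level of all beta tubulin genes was 76.6 ± 15.5 (SD over 10) in oocytes, 79.6 ± 14.9 (n = 9) in zygotes, 81.8 ± 20.0 (n = 5) in E2C and 82.1 ± 22.6 (n = 6) in L2C embryos. These totals differ by less than their spread. It was 104 ± 15.2 in the 4-cell, 37.4 ± 19.4 in the 8-cell and 30.0 ± 10.2 in the 16-cell embryos. As shares of the beta tubulin UMIs summed over a stage, Tubb3 made up 81.9% in oocytes, 65.2% in zygotes, 56.9% in E2C and 3.41% in L2C, while Tubb4b made up 5.04%, 13.4%, 17.1% and 67.2%. Tubb3 was the most abundant beta tubulin in all 10 oocytes, all 9 zygotes and all 5 E2C embryos. Tubb4b was the most abundant in all 6 L2C, all 5 4-cell and all 4 8-cell embryos, in 3 of 4 16-cell embryos, in all 22 32-cell cells and in 8 of 13 blastocyst cells. Tubb5 took the remaining 16-cell embryo and the remaining 5 blastocyst cells, and led in all 5 mESC cells with 53.3% of the UMIs. The shares are a description and were not tested. They sum cells of different runs, and the oocyte to zygote part differed by run. The mean of Tubb3 was 56.9 in oocytes and 41.9 in zygotes in run 1, 48.3 and 32.7 in run 2 and 75.2 and 78.0 in run 3.

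**Figure D2:**
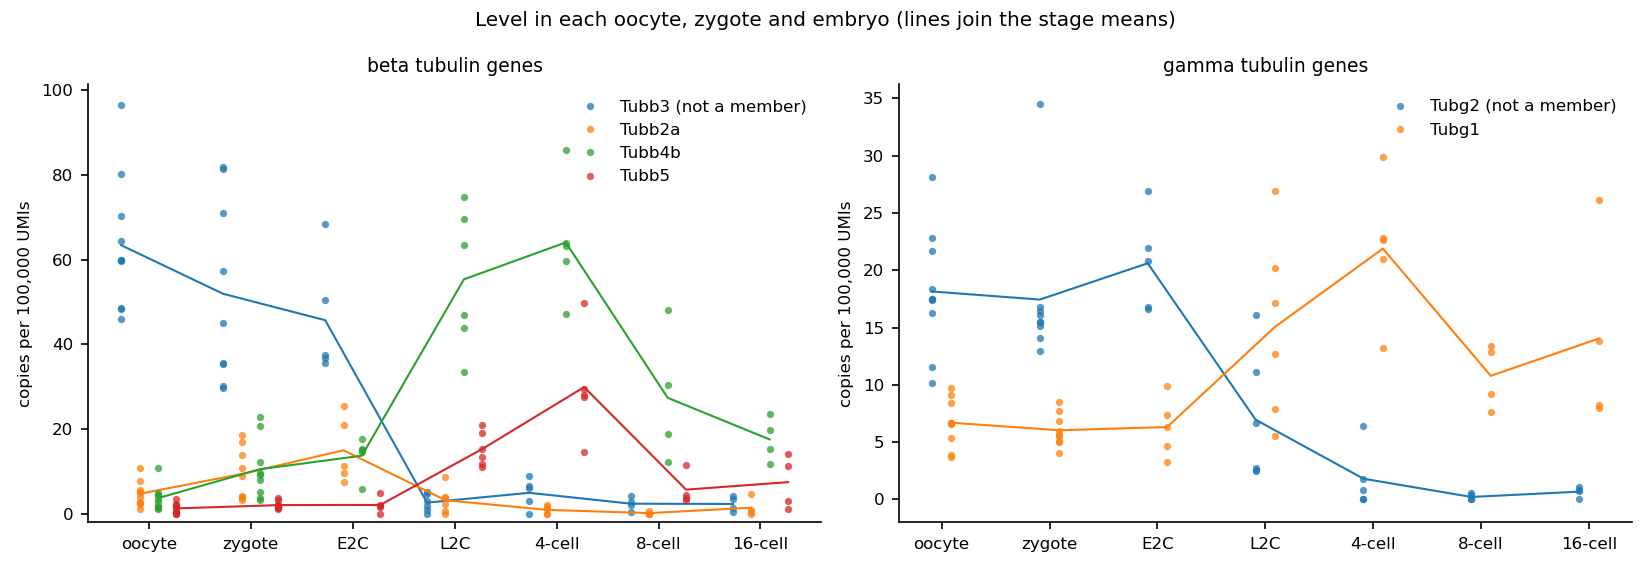
Level in copies per 100000 UMIs (y axis) of 4 beta tubulin genes (left) and 2 gamma tubulin genes (right) in each of the 43 oocytes, zygotes and embryos by stage (x axis), with lines joining the stage means. Tubb3 at 35.5 to 68.3 in E2C gives way to Tubb4b at 33.4 to 74.8 in L2C, and Tubg2 and Tubg1 change places at the same step.

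Gamma tubulin changed hands at the same step. Tubg1 was 3.71 to 9.74 in oocytes (median 6.68), 4.03 to 8.52 in zygotes (median 5.67) and 7.40, 6.34, 4.69, 9.92 and 3.26 in the E2C embryos, which did not differ beyond their spread. L2C embryos held 5.56 to 26.9 with a median of 14.9, and 2 of the 6 overlapped the E2C range. The lowest of them, 5.56 in L2C embryo 1, rested on 1 UMI. The mean rose 2.38-fold from 6.32 ± 2.56 (SD over 5) to 15.1 ± 7.99 (SD over 6), with a log2 fold change of 1.17 (SE 0.34, adjusted p = 0.00297). This call depended on the test, since edgeR gave 0.86 and DESeq2 0.74 and neither was called. The 4-cell embryos stood at 13.2, 29.9, 21.0, 22.6 and 22.8, the 8-cell embryos at 9.24, 12.9, 7.64 and 13.4, and the 16-cell embryos at 8.20, 7.99, 13.8 and 26.2. Tubg2, the second gamma tubulin gene, lies 29487 bases from Tubg1 on chromosome 11 and shares 93.3% of its coding bases. It was 16.8, 20.8, 16.6, 21.9 and 26.9 in E2C and 2.49 to 16.1 in L2C, with no overlap. It fell between them (log2 fold change −1.93, SE 0.38, adjusted p = 1.4e-05) and again from L2C to 4-cell (−1.45, SE 0.43, adjusted p = 0.042). Tubg1 made up 26.8%, 26.1% and 25.9% of the gamma tubulin UMIs in oocytes, zygotes and E2C, then 73.3% in L2C and 93.0% in 4-cell embryos. Tubg2 was the more abundant in every oocyte, zygote and E2C embryo, and Tubg1 in 4 of 6 L2C embryos and in every 4-cell, 8-cell and 16-cell embryo. The summed gamma tubulin level was 26.9 ± 4.29 (SD over 5) in E2C and 22.0 ± 6.20 (SD over 6) in L2C.

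**Figure D3:**
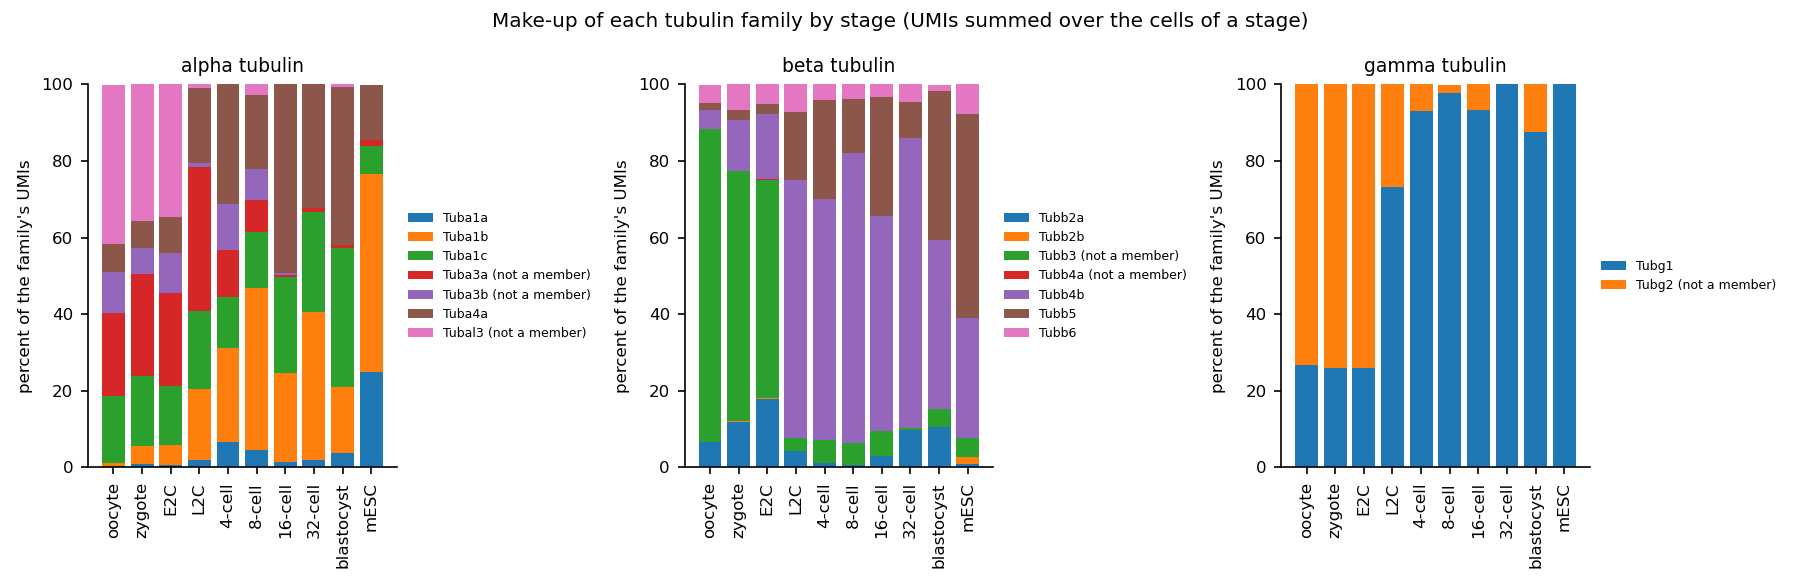
Share of each gene (y axis, percent of the UMIs of its family, summed over the cells of a stage) in alpha, beta and gamma tubulin by stage (x axis). The beta panel passes from Tubb3 (81.9% in oocytes) to Tubb4b (67.2% in L2C) and the gamma panel from Tubg2 to Tubg1 (73.3% in L2C), whereas the alpha panel passes through mixtures to Tuba4a (49.1% in 16-cell embryos) and Tuba1b (51.8% in mESC).

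The summed level of alpha tubulin stood at 13.7 to 16.0 copies per 100000 in every stage mean from oocyte to 8-cell and was 30.2 ± 9.86 (SD over 4) in 16-cell embryos. Tuba4a was 0 to 3.09 in oocytes (median 1.09), 0 to 1.80 in zygotes (median 1.36), 3.15, 1.58, 1.49, 0 and 1.09 in E2C, 0 to 7.91 in L2C (median 2.18) and 0.770, 2.45, 3.30, 4.21 and 7.40 in 4-cell embryos. The 8-cell embryos stood at 2.13, 2.54, 3.17 and 2.85 and the 16-cell embryos at 8.33, 22.0, 18.4 and 9.18, without overlap. Tuba4a was the single one of the 10 genes called higher from 8-cell to 16-cell, where 1.9% of all genes were called higher. The mean rose 5.41-fold from 2.67 ± 0.44 (SD over 4) to 14.5 ± 6.77 (SD over 4), with a log2 fold change of 1.83 (SE 0.47, adjusted p = 0.0297). Single cells held 0 to 32.9 at the 32-cell stage (median 8.20), 5.65 to 42.2 in blastocysts (median 18.6) and 7.99 to 42.1 in mESC (median 16.4).

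Tuba1b, the alpha tubulin of most proliferating cells, was at or near 0 in oocytes and had a higher mean at each later stage up to 16 cells, but no step between adjacent stages was called. It was above 0 in 3 of 10 oocytes (0 to 0.553), 5 of 9 zygotes (0 to 2.79), 4 of 5 E2C embryos (0, 2.13, 0.545, 1.10 and 1.61) and 5 of 6 L2C embryos (0 to 5.79, median 3.41). The 4-cell embryos stood at 3.06, 12.5, 3.09, 3.54 and 3.01, where 12.5 came from 2 UMIs. Their median of 3.09 was below the L2C median, so the higher mean at this step leans on that embryo. The 8-cell embryos held 3.59, 8.54, 8.66 and 4.27 and the 16-cell embryos 5.66, 8.52, 8.03 and 7.32. The 16-cell embryos all stood above all oocytes (log2 fold change 2.79, SE 0.33, adjusted p = 5.74e-11, from a mean of 0.143 that rests on 3 UMIs to 7.38 ± 1.25, SD). Single 32-cell cells held 0 to 54.8 (median 11.6) and blastocyst cells 1.86 to 27.4 (median 7.17). Tuba1b was the most abundant alpha tubulin in all 4 8-cell embryos, and in all 5 mESC cells, which held 39.9 to 83.6 copies (median 77.4).

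Tuba1c (chr15:99029891-99038110, plus strand) was detected at all stages, though above 0 in only 4 of 6 L2C and 3 of 5 4-cell embryos. It was 0.553 to 4.20 in oocytes (median 3.20), 0 to 6.85 in zygotes (median 2.58) and 1.75 to 3.52 in E2C embryos, and its 16-cell embryos stood at 6.05, 10.8, 6.10 and 2.79 against 2.18, 0.856, 2.81 and 2.53 in 8-cell embryos. That difference, 1.32 on the log2 scale (SE 0.51, adjusted p = 0.24), was not called. Tuba1a (chr15:98949837-98953703, minus strand), the alpha tubulin of developing neurons, held 1 UMI in all 10 oocytes together and a mean of at most 1.02 copies in any stage to 16 cells. It held 10.9 to 55.9 copies in the 5 mESC cells (median 31.9), above the highest embryo cell of the 32-cell stage (6.35) and blastocyst (6.86). In oocytes, zygotes and E2C embryos the more abundant alpha genes were others. Tubal3 made up 41.6%, 35.7% and 34.6% of alpha tubulin UMIs and Tuba3a 21.6%, 26.9% and 24.3%. In L2C Tubal3 held 1.02% and Tuba3a 37.8%, the largest alpha share there, and Tuba3a led in 3 of 6 L2C embryos.

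Tubb6 (chr18:67390717-67402749, plus strand), a minor beta tubulin, ranged from 0 to 10.0 in oocytes (median 2.58), from 3.08 to 9.74 in zygotes (median 4.13) and from 0 to 8.46 in L2C embryos (median 6.73), and was called in no comparison. Its mean was 3.49 ± 3.04 (SD over 10) in oocytes and 1.16 ± 0.82 (SD over 4) in 16-cell embryos, a log2 fold change of −1.10 (SE 0.42, adjusted p = 0.019). Tubb2b (chr13:34126748-34130466, minus strand), the near copy of Tubb2a, was the rarest with 13 UMIs in all cells. It was above 0 in 4 of 9 zygotes (up to 0.908), 3 of 5 E2C embryos (0.545, 0.551 and 1.61) and 2 of 5 mESC cells (up to 14.0). In oocytes it was at 0 among 2027809 UMIs, where 3 UMIs, the limit that a count of 0 allows, would be 0.148 copies per 100000. No isoform was assigned to it.

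In the steps from zygote to E2C and from L2C to 4-cell none of the 10 genes was called by limma, edgeR or DESeq2, and none of the 9 tested had an unadjusted p under 0.05 in limma. Of all genes, 7.27% and 6.69% were called in either direction. Between oocytes and 16-cell embryos, a comparison that shares its oocytes with oocyte to zygote, 4 of 9 tubulin genes were called higher (26.8% of all genes) and 1 lower (24.0% of all genes). These were Tuba1b (2.79), Tuba4a (log2 fold change 2.66, SE 0.38, adjusted p = 6.93e-09), Tubb4b (2.23, SE 0.36, adjusted p = 2.4e-07) and Tubb5 (1.52, SE 0.38, adjusted p = 3.59e-04). The lower gene was Tubb2a (−1.45, SE 0.41, adjusted p = 0.0015). Its call was lost without 16-cell embryo 1 (−1.37) or 2 (−1.24). With the isoform table summed per gene, the calls of Tuba1b (0.26), Tubb5 (0.86) and Tubb2a (−1.09) were lost. Tubb5 and Tubb2a overlapped between the stages, and the other 3 did not.

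**Figure D4:**
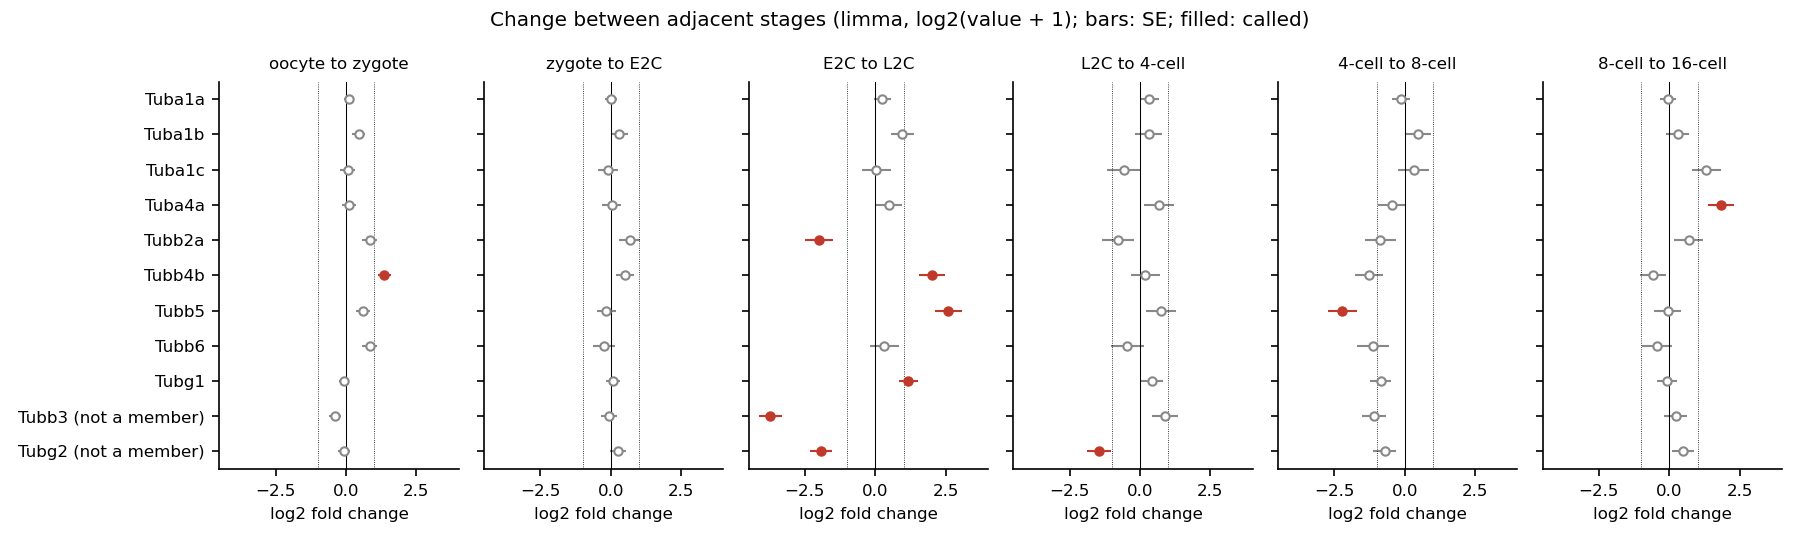
Log2 fold change with its SE (x axis, later minus earlier stage, limma on log2(level + 1)) of the 9 tubulin genes tested and of Tubb3 and Tubg2 (y axis) in the 6 comparisons of adjacent stages. Filled red points were called; Tubb4b, Tubb5 and Tubg1 stand to the right and Tubb2a, Tubb3 and Tubg2 to the left from E2C to L2C, and the steps on either side of it hold no call among the 10 genes.

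The isoform table resolved these genes into isoforms, not all of which were whole transcripts. Many forms begin inside the gene and lack the start codon. The paper proposes that some transcripts without a start codon might come from incomplete reverse transcription. Whether the forms below that lack it are such products was not tested. Of the 38 isoforms, 15 matched a reference transcript at every splice junction (FSM), 18 matched only part of one (ISM), 3 joined known splice sites anew (NIC) and 2 used a new splice site (NNC). Isoforms were kept by the authors only if found in several cells, and the isoform table held 69.4% of the gene table's UMIs over all genes, but 51.6% for Tubb4b, 54.5% for Tubb5, 82.9% for Tubg1 and 13.9% for Tuba1b. Isoform levels therefore understate some genes more than others.

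For Tubb2a the isoform UMIs numbered only 5 in 4-cell embryos, 1 in 8-cell embryos, 5 in 16-cell embryos and 1 in mESC. Its leading isoform is thus uncertain there. With that limit, the most abundant isoform was the same at every stage for Tubb4b, Tubb5, Tubb2a and Tubg1. It was not for Tuba1c, where the ISM form PB.28304.52 held 6 of 9 isoform UMIs in zygotes and the FSM form PB.28304.39 held 7 of 9 in oocytes and 26 of 33 in 16-cell embryos. The Tubb4b isoform was PB.40656.4 (chr2:25222147-25224782, minus strand, 4 exons, 1691 bases), an FSM that begins 80 bases upstream of the annotated start. Its level was 0.545 to 8.56 in oocytes (median 1.40) and 1.91 to 21.0 in zygotes (median 5.23). It was 5.78 ± 2.15 (SD over 5) in E2C and 27.2 ± 13.3 (SD over 6) in L2C. It rose from oocyte to zygote (log2 fold change 1.55, SE 0.31, adjusted p = 6.9e-04) and, with overlap of 1 L2C embryo at 8.08 with the highest E2C embryo at 8.21, from E2C to L2C (2.07, SE 0.58, adjusted p = 0.00426). Isoforms were not fitted by run, and the oocyte to zygote rise of the Tubb4b gene was not seen in run 3. PB.40656.4 was lower at 8-cell than at 4-cell (−1.68, SE 0.59, adjusted p = 0.0654, called on an unadjusted p of 0.00566), a call lost without the 4-cell embryos 4 (−1.31) or 5 (−1.50) or the 8-cell embryos 1 (−1.29) or 3 (−1.57). A second Tubb4b isoform, PB.40656.7, an ISM of 1527 bases that begins 453 bases inside the gene and lacks the start codon, rose with it from 0.557 ± 1.25 to 3.92 ± 2.35 (SD) between E2C and L2C (log2 fold change 1.72, SE 0.40, adjusted p = 5.09e-04).

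The main Tubb5 isoform, PB.33220.8 (chr17:35834764-35838328, minus strand, 4 exons, 1828 bases), ends 843 bases before the annotated 3′ end of the gene. It rose from 1.90 ± 2.21 (SD over 5) in E2C to 8.21 ± 4.60 (SD over 6) in L2C (log2 fold change 1.82, SE 0.57, adjusted p = 0.00937) and fell from 23.0 ± 11.2 (SD over 5) in 4-cell to 2.58 ± 2.13 (SD over 4) in 8-cell embryos (−2.66, SE 0.57, adjusted p = 0.00104). The long form PB.33220.4 (2591 bases) ends 5 bases before the annotated end. It held 6 of 79 Tubb5 isoform UMIs in mESC and, over all embryo stages and oocytes, 1 of 23 in zygotes, 2 of 94 in 4-cell and 1 of 37 in 16-cell embryos, and none elsewhere. Tuba4a also used an early 3′ end: PB.2089.16 (chr1:75215543-75219311, minus strand, 1542 bases) ends 1315 bases before the annotated end and rose from 0.904 ± 0.74 (SD over 10) in oocytes to 6.65 ± 5.36 (SD over 4) in 16-cell embryos (log2 fold change 1.54, SE 0.36, adjusted p = 3.24e-04).

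Tubb2a had the widest choice of 3′ ends, with 4 FSM forms of 1604, 1805, 1906 and 2319 bases. The shortest, PB.19608.14 (chr13:34074281-34078008, minus strand), held 68.8% of Tubb2a isoform UMIs in oocytes (33 of 48), 88.0% in zygotes (132 of 150) and 78.7% in E2C (48 of 61). It rose from 2.08 ± 2.59 (SD over 10) in oocytes to 7.56 ± 5.84 (SD over 9) in zygotes (log2 fold change 1.49, SE 0.35, adjusted p = 0.00477), with overlap. This rise was not fitted by run, and the difference of the Tubb2a gene was 0.98, 0.54 and 0.22 in runs 1, 2 and 3. The mean of PB.19608.14 was 8.98 ± 7.78 in E2C and 2.81 ± 2.21 in L2C, a difference that was not called, and the ISM form PB.19608.12, which lacks the start codon, fell from 1.16 ± 0.86 (SD over 5) in E2C to 0 in all 6 L2C embryos (log2 fold change −1.06, SE 0.26, adjusted p = 0.00104, on 6 UMIs).

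Tubg1 had the most isoforms, 12, of which 8 were ISM forms that begin within the gene. The FSM form PB.13909.1 (chr11:101119872-101126424, plus strand, 11 exons, 1873 bases) held 73.1% of its UMIs in oocytes, 63.0% in L2C and 75.8% in 4-cell embryos. Isoforms holding the start codon made up 70.2 to 84.6% of Tubg1 isoform UMIs in the 7 stages from oocyte to 16-cell, against 91.3 to 97.5% for Tubb4b and 84.0 to 100% for Tubb5. The short ISM form PB.13909.67 was called higher in L2C (1.25 ± 1.71, SD, n = 6) than in E2C, where it was 0 in all 5 embryos (log2 fold change 1.03, adjusted p = 0.0329, on 7 UMIs), and this call was lost without any of the E2C embryos (p of 0.0131 to 0.016). Tuba1c PB.28304.39 rose from 0.334 ± 0.42 (SD over 4) in 8-cell to 2.45 ± 0.38 (SD over 4) in 16-cell embryos without overlap (log2 fold change 1.27, SE 0.40, adjusted p = 0.13). Without 8-cell embryo 2 it was 1.08 and not called. Tubb6 was read as a single isoform, PB.36950.3, of 4 exons and 1866 bases, with 0.197 to 2.48 copies in 16-cell embryos and 2.24 to 6.13 in zygotes. The single Tuba1a isoform PB.28306.1 and the Tuba1b isoform PB.28305.46, both FSM, reached 6.08 to 43.7 and 8.999 to 30.4 copies in mESC and medians of at most 0.684 in every other stage.

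Of the 19 isoforms that passed the filter, 2 were called higher from oocyte to zygote (1.16% of all 29409 isoforms). From E2C to L2C 4 were called higher and 1 lower (12.9% and 13.1%). Further calls were 2 lower from 4-cell to 8-cell (4.3%), 1 higher from 8-cell to 16-cell (1.05%) and 3 higher from oocyte to 16-cell (15.8%). From zygote to E2C and from L2C to 4-cell none was called by limma, with 2 at an unadjusted p under 0.05 in each, and 5.18% and 4.29% of all isoforms were called in either direction. Shifts of isoform share within a gene were also tested, by limma after an arcsine transform of each share, for genes with at least 2 isoforms present in 3 embryos of both stages. None of the 10 genes was called, among 2 tested from oocyte to zygote (0.0% of 3411 genes called), 1 from zygote to E2C (0.38% of 2370), 1 from L2C to 4-cell (0.0% of 1644), 1 from 4-cell to 8-cell (0.0% of 1356) and 1 from 8-cell to 16-cell (0.0% of 1490), and none could be tested from E2C to L2C. Of the tubulin isoforms in these tests 1 of 2 from zygote to E2C, 1 of 3 from L2C to 4-cell and 1 of 3 from 4-cell to 8-cell had an unadjusted p under 0.05, and none in the other steps. With isoforms present in 2 embryos as the limit, 2 of the 10 genes could be tested from E2C to L2C, where 2.11% of 1895 genes were called, and neither was called, with no isoform of 5 at an unadjusted p under 0.05. Only Tubb2a, Tubb4b, Tubg1 and, with the limit of 2 embryos, Tuba1c could be tested in any step. No change of isoform share was called in them at this depth. In the steps where no gene at all was called, the test cannot show whether their shares changed.

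**Figure D5:**
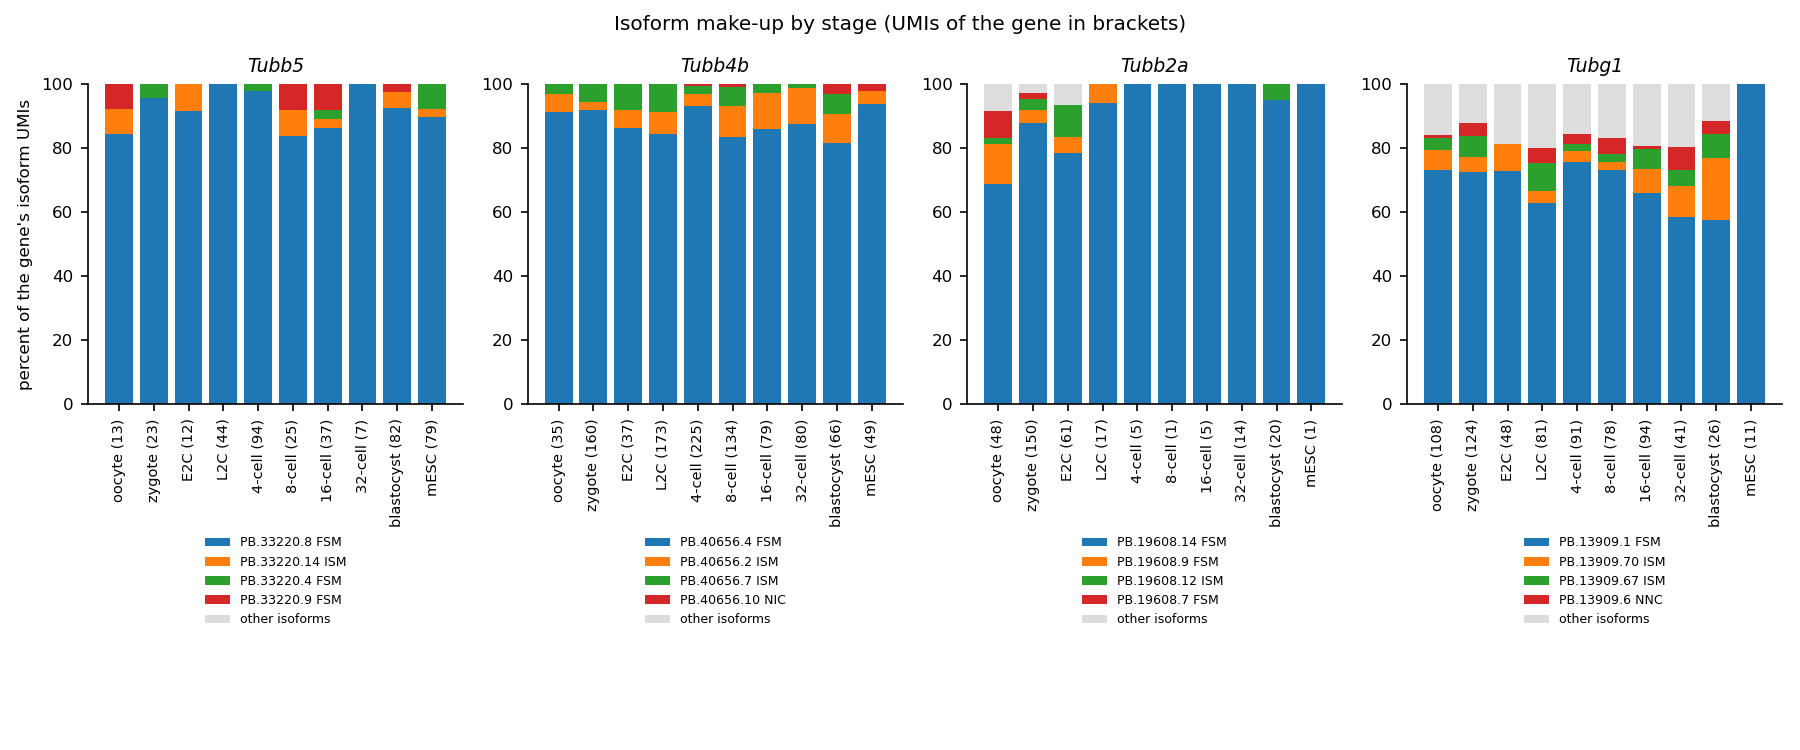
Share of each isoform (y axis, percent of the isoform UMIs of the gene) by stage (x axis, with the number of UMIs in brackets) for Tubb5, Tubb4b, Tubb2a and Tubg1; the 4 isoforms with the most UMIs are coloured. The largest isoform holds most UMIs in every stage, though Tubb2a has only 1 UMI in 8-cell embryos and 1 in mESC. Tubb5 PB.33220.4, the form with the late 3′ end, holds 6 of 79 UMIs in mESC.

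Genes whose level ran most like that of a tubulin gene over the 43 embryos were found by Pearson's r on log2(level + 1), given as a description, since the points share their stages, depth and libraries. For Tubb4b they were Dynll1, a dynein light chain (r = 0.92), with stage means of 40.6 in E2C and 117 in L2C, and Imp4 (r = 0.90). For Tubb5 they were Leng1 (r = 0.90) and Pprc1 (r = 0.89), and for Tubg1 Vps16 (r = 0.87) and Slc39a4 (r = 0.85). For Tubb2a they were Gstm5 (r = 0.88), with 30.4 in E2C and 1.68 in L2C, and Slco3a1 (r = 0.87), and for Tuba4a the aminoacyl-tRNA synthetases Mars (r = 0.77) and Vars (r = 0.76).

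The partners of tubulin were counted from lists of the pathway, and every value below is a mean of embryos in E2C and then in L2C. Between E2C and L2C, 6 of the 8 subunits of the CCT chaperonin, which folds tubulin and actin, were called higher and none lower, with Tcp1 at 4.06 and 55.5, Cct6a at 1.10 and 18.3 and Cct4 at 2.64 and 23.1 copies in E2C and L2C. All 8 were called higher in 16-cell embryos than in oocytes, where 26.8% of all genes were called higher. The median log2 fold change of the 8 was 1.60 between E2C and L2C and 3.86 between oocytes and 16-cell embryos. Of 5 tested cofactors that assemble the alpha and beta dimer, Tbcc (1.004 to 16.9), Tbcb (3.79 to 26.9) and Tbce (0.800 to 4.07) were called higher and Tbca (24.9 to 11.7) lower. Of the 6 prefoldin subunits, which pass new chains to CCT, Pfdn6 rose from 2.21 to 47.1 and Pfdn4 fell from 178 to 12.8. Of 8 members of the gamma tubulin ring complex, Tubgcp2 and Tubgcp6 rose from 0 in all E2C embryos to 2.65 and 2.29, and Nedd1, which targets the complex to the spindle, fell from 29.8 to 5.93. Of 3 genes of tubulin autoregulation only Cnot11 was called, lower (12.4 to 1.33).

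Of 10 microtubule binding proteins 5 were called lower between E2C and L2C, among them Mapre1, which tracks growing plus ends (73.7 to 10.7), Map4 (11.2 to 3.83) and Stmn1, which binds free dimers (14.7 to 4.58), and 1 higher, the severing subunit Katna1 (6.13 to 16.5). Of 11 tested enzymes that modify tubulin, Ttll12 was called higher (0.240 to 1.49) and Agtpbp1, which trims the tail, lower (14.7 to 6.88). Of the 7 other tubulin genes tested, 4 were called lower and none higher (Tubb3, Tubal3, Tube1 and Tubg2). These counts stand against 25.6% of all genes called higher and 22.8% called lower in this step.

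A separate sequencing run held 4 intact oocytes, 6 1/2 oocytes and 6 1/4 oocytes, with 129744 to 289774 UMIs each, read as isoforms and set beside the main table without a test. In the intact oocytes the summed isoforms of Tubb4b stood at 1.42 to 5.48 copies per 100000 (median 4.09), of Tubb2a at 2.84 to 9.31 (median 5.59), of Tubg1 at 3.20 to 7.12 (median 3.65) and of Tubb5 at 0 to 2.22 (median 1.44). Tuba1a and Tuba1b were at 0 in all 4, and Tubb3 stood at 47.6 to 69.1. The 1/2 and 1/4 oocytes had medians of 4.04 and 2.64 for Tubb4b and of 5.70 and 4.98 for Tubb2a, inside the range of the intact oocytes. Their medians of 70.2 and 73.5 for Tubb3 were above that range. Tuba1b reached 2.07 (4 UMIs) in the 1/2 oocytes and 0.423 (1 UMI) in the 1/4 oocytes.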

How the data were processed

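Single mouse oocytes, blastomeres and mESC had been read as full-length cDNA on PacBio instruments. Per the labels and the study's methods, the authors made consensus reads with SMRT-Link CCS, assigned cell barcodes and UMIs with scISA-Tools, aligned to mm10 with minimap2, assigned reads to genes with gffcompare, collapsed them into isoforms with cDNA_Cupcake, classified these with SQANTI3 and dropped isoforms seen in few cells. The deposited gene and isoform tables hold CPM values divided by 10, that is, copies per 100000 UMIs of a cell. Some columns of the deposited tables were recorded as CPM and the rest, where each cell is named singly, as a score in that same unit. The run of intact, 1/2 and 1/4 oocytes holds deposited whole UMI counts per isoform.

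Whole UMIs could be recovered from 100% of the values, within a tolerance of 0.1. The mean over an embryo's cells was tested with limma 3.58.1 (trend and array weights, R 4.3.3) on log2(value + 1) in 1 fit of 7 stages, after a filter of at least 1 copy in at least 4 embryos (11682 of 20171 genes and 29409 of 68012 isoforms). A feature was called where its log2 fold change lay beyond 1 or −1 and its unadjusted p below 0.01. Benjamini-Hochberg adjustment was made over every feature in the fit. All 10 tubulin genes are named, as are their isoforms that were called or abundant at a stage. From each pathway list up to 3 genes with the smallest p between E2C and L2C are named. Tbca, Tubg2 and Katna1 fall outside that rule and were named after their values were seen. Genes alike are the 2 with the highest Pearson's r for each tubulin gene called between adjacent stages. The fits were also run on simulated UMIs per embryo, with changes planted in well counted genes and isoforms only. The rates of recovery are not given here and do not cover sparse genes or means over cells. Alternatives were a pseudocount of 0.5, no filter, no array weights, edgeR 4.0.16 and DESeq2 1.42.0 on recovered UMIs, the isoform table summed per gene, sequencing run as a block, and each embryo left out. Leaving out run 2 was chosen after seeing the data. The tubulin genes, the pathway lists and the tests were chosen with earlier results of these data known. Python 3.11.15 with pandas 2.3.3 and matplotlib 3.10.9 was used for tables and figures. Intervals and limits of detection cover counting error only.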

Additional observations from a re-analysis of the deposited data

Results flagged for a closer look

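Of 65 groups of 4 to 10 embryos, 10 held an embryo that stood far from the others. For normally distributed values chance gives about 1 group in 20, a rate that was not tested on these sparse counts. In 4 of the 10 groups every other embryo was at 0. All values are copies per 100000 UMIs.

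Tuba1a was 0.417 in oocyte 6 (1 UMI), 1.24 in zygote 6 (4 UMIs) and 0.483 in E2C embryo 4 (1 UMI), with all others of these groups at 0. Tubb2a was 0.770 in 8-cell embryo 2 (2 UMIs), with the others at 0. Tuba1b was 2.79 in zygote 6 (9 UMIs), against at most 1.38 in the others, and 12.5 in 4-cell embryo 2, where it rests on 2 UMIs, against 3.01 to 3.54. Tubb4b was 10.8 in oocyte 6 (26 UMIs), against 1.20 to 4.97 in the others, and 5.96 in E2C embryo 5 (9 UMIs), below 14.6 to 17.7 in the others. Tubb5 was 11.6 in 8-cell embryo 2 (24 UMIs), against 3.19 to 4.40 in the others. Tubb6 was 2.18 in E2C embryo 3 (4 UMIs), below 4.85 to 5.79 in the others.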

How the results depend on the processing

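Over the alternatives other than leaving out an embryo, 131 of the named changes stood on the same side of the limit and 11 were lost, and over left-out embryos 105 stood and 12 were lost. No named change reversed. The number of tubulin genes called was 2 from oocyte to zygote (1 in the report) with a pseudocount of 0.5, with the isoform table or with edgeR, 2 from E2C to L2C (4 in the report) and 3 from oocyte to 16-cell (5 in the report) with the isoform table, 2 from 4-cell to 8-cell (1 in the report) without array weights or with the isoform table, and 2 from 8-cell to 16-cell (1 in the report) with the isoform table or edgeR. With the isoform table the calls of Tubg1 (0.75) and Tubb2a (−1.47) from E2C to L2C and of Tuba1b (0.26), Tubb5 (0.86) and Tubb2a (−1.09) from oocyte to 16-cell were lost. Leaving out 1 embryo gave 1 to 2 calls from 4-cell to 8-cell (2 without 8-cell embryo 2) and from 8-cell to 16-cell (2 without 16-cell embryo 4). The number of isoforms called was 1 from zygote to E2C with a pseudocount of 0.5 and 2 from L2C to 4-cell without array weights (0 in the report for both), 1 from 4-cell to 8-cell with a pseudocount of 0.5 or no filter (2 in the report), and 2 from 8-cell to 16-cell with a pseudocount of 0.5 (1 in the report). Leaving out 1 embryo gave 3 to 5 isoforms from E2C to L2C (3 without E2C embryo 4), 1 to 2 from 4-cell to 8-cell, 0 to 2 from 8-cell to 16-cell and 3 to 5 from oocyte to 16-cell. The cause was not tested. No paired analysis was possible because the embryos of different stages share no pairing. The short Tubg1 isoform PB.13909.67 was lost without the filter (0.96) and without array weights (0.90). Of the levels, 15 moved by more than the spread between embryos, all with the isoform table. About 3 copies per 100000 stood for 1 UMI in a median cell from the 4-cell to the 16-cell stage, which limits statements on low genes there.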
